A study of Mus musculus with 5 samples.

Results

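Integrins are the receptors by which cells hold on to the matrix around them, and laminins are the trimeric proteins that form the sheet-like basement membrane under an epithelium. The genes described here are those of the mouse integrin and laminin subunits, chosen by gene symbol alone as the Itga, Itgb, Lama, Lamb and Lamc families. The rule uses no measured value, although it was set with earlier results of these data known. The array measured 31 such genes with 56 probe sets, out of 12393 genes in all, and where a gene had several probe sets the one with the highest mean signal stands for it. They fall into 7 integrins of epithelium, 7 integrins of leukocytes, 7 other integrins and 10 laminin chains. Itga1, Itga10, Itga11, Itgad and Itgb8 were not analysed here.

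The values are log2 signals from laser-captured cells, which are cut out of a tissue section under a microscope. The tumour group holds 3 arrays of intestinal tumours from Apc1638N mice on the C57Bl6/J strain (tumours 16, 18 and 2). These mice carry a truncating mutation of Apc, the scaffold that restrains Wnt signalling. The wild-type group holds 2 arrays of normal intestinal epithelium from C57Bl6/J mice with no Apc mutation named (wild types 36 and 62). No array holds normal epithelium of Apc1638N mice, so genotype and tumour state cannot be told apart in any difference below. All animals were males aged 8 months kept under specific pathogen-free conditions. The labels do not say whether the samples of a group are from separate animals, and where they did not, p-values measure only the spread between samples, which may be technical. With 5 arrays the precision is limited by their number.

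Each integrin is a pair of 1 alpha and 1 beta chain, and the pairing sets what it binds. In gut epithelium the pairs of Itgb1 with Itga2, Itga3 or Itga6 and the pair of Itga6 with Itgb4 bind collagens and laminins, while Itgav with Itgb5 or Itgb6 binds fibronectin, vitronectin and latent TGF-beta. Leukocytes carry pairs of Itgb2 or Itgb7 that bind counter-receptors on other cells. A laminin is a cross of an alpha, a beta and a gamma chain. Lama3 and Lamb3 encode chains of the laminin to which the hemidesmosome, the anchor of epithelial cells, attaches.

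Lama3 and Itgav rose in tumours, Itgae fell, and the other 28 members did not pass the test. The test was limma's moderated test over all 12393 genes with Benjamini-Hochberg adjustment and a threshold of 0.05. In all, 21.7% of the genes tested were called, 11.3% higher and 10.5% lower in tumours, against 3 of 31 members (9.68%). The median difference of the members was 0.12 on the log2 scale, against 0.00 for all genes tested. The groups did not overlap for 13 members that were higher in tumours and 5 that were lower. These 18 members are 58.1% of the 31, and 50.7% of all genes tested had groups that did not overlap, 27.0% higher and 23.7% lower. Splitting 5 arrays into 3 and 2 cannot give an exact two-sided permutation p below 0.1 for a single gene. Dropping any 1 array lowered the number of calls among all genes tested as well, as given in the last section. Fits that each dropped 1 array (tumours 16, 18 and 2, then wild types 36 and 62) called 0, 0, 4, 1 and 0 members in limma, with 9, 10, 11, 6 and 5 members at an unadjusted p under 0.05. A further setting, added once the data had been seen, also dropped probe sets whose values were tied within a group, and then 5, 3, 8, 2 and 2 members were called. In those fits Itgav and Itgae kept their calls each time, and Lama3 lost its call without either wild type (adjusted p = 0.0541 and 0.0644).

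**Figure D1:**
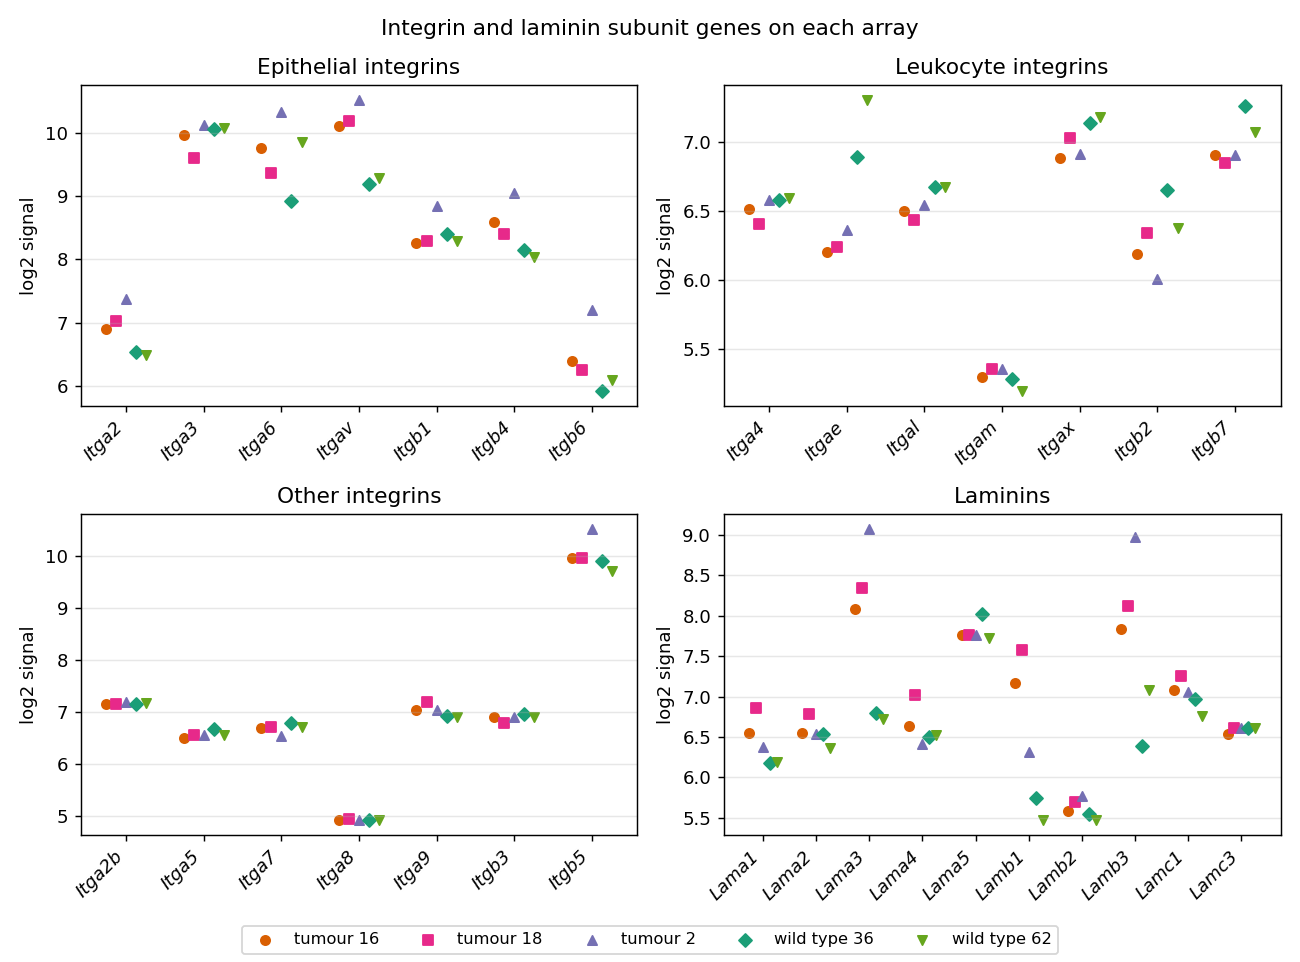
The log2 signal of each of the 31 members (vertical axis) on each of the 5 arrays, 1 symbol per array, in panels for epithelial, leukocyte and other integrins and laminins. Lama3 lies at 8.09 or higher in tumours and at 6.79 or lower in wild type, and heights are not comparable between genes, since each has its own probe set.

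**Figure D2:**
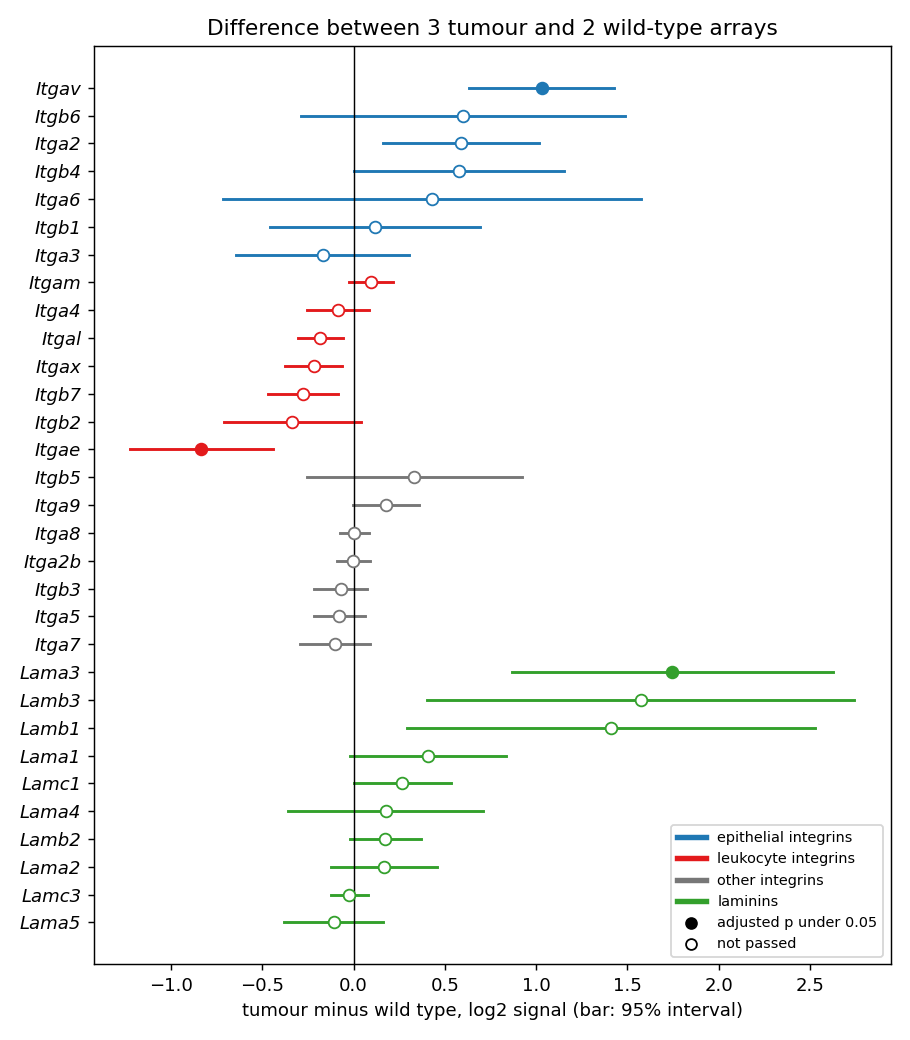
The difference of each member, tumour minus wild type in log2 signal (horizontal axis), with limma's 95% interval as a bar, coloured by group of genes. Filled points passed an adjusted p of 0.05, namely Itgav at 1.03, Itgae at -0.83 and Lama3 at 1.75, and open points did not.

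The captured tissue carried the markers of epithelium on every array. Krt8, a keratin of simple epithelia, lay between 13.08 and 13.71, and the adhesion molecule Epcam between 10.79 and 11.56. The epithelial markers were not alike in the groups, since of 11 measured 2 rose (Krt18 by 2.44 and Krt19 by 1.20) and 1 fell, Vil1 of the brush border (log2 difference -1.26), while Krt20 of mature cells differed by -1.82 and did not pass (adjusted p = 0.0619 in limma). Markers of other cell types differed as well. Of 8 fibroblast markers, 7 had groups that did not overlap and were higher in tumours, with 1 called (Dcn). Among all genes tested 27.0% were higher without overlap. Of 12 T and NK cell markers 5 fell and 0 rose, and of 5 B and plasma cell markers 2 fell, Jchain (-2.99) and Igha (-1.99). Among all genes tested 11.3% rose and 10.5% fell. Of 6 smooth muscle markers 1 rose, Acta2 (1.22), and of 7 endothelial markers 0 were called in limma. Of these 7, 1 had an unadjusted p under 0.05 in limma, Vwf (log2 difference 0.90, adjusted p = 0.121). The gap between the 3′ and 5′ probe sets of beta-actin, a measure of RNA integrity, averaged 4.15 log2 units in tumours and 2.91 in wild type, and it was larger in every tumour than in either wild type. For Gapdh this gap was 4.50 to 4.83 in tumours and 3.67 to 4.01 in wild type. The part of this difference in the results below was not tested. In captured tissue, fewer cells of a type and less RNA per cell cannot be told apart.

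Among the epithelial integrins the alpha chain gene Itgav rose. Its log2 signals were 10.10, 10.18 and 10.52 in tumours 16, 18 and 2 and 9.19 and 9.29 in wild types 36 and 62. Every tumour lay above both wild types, with tumour 2 the highest. The means were 10.27 ± 0.22 (SD, n = 3) and 9.24 ± 0.06 (SD, n = 2), a log2 difference of 1.03 (SE 0.15, adjusted p = 0.0184 in limma), or 2.04-fold. The remaining 2 probe sets of Itgav had differences of 0.23 (adjusted p = 0.180 over probe sets) and 0.01 (0.947), at wild-type means of 5.33 and 6.65. Averaging the 3 probe sets gave a difference of 0.42, which still passed (adjusted p = 0.0341 in limma). The call was lost without tumour 16 (adjusted p = 0.0584), tumour 18 (0.0668), wild type 36 (0.112) or wild type 62 (0.107), with differences of 0.90 to 1.11 over the 5 fits that each left out 1 array.

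The sequence before the start of Itgav is shown because it is the called epithelial integrin with an entry in the promoter table, and that of Lamb3 because it is the measured partner chain of Lama3. Both are the 250 bases before the start on the plus strand, from RefSeq on GRCm38.p6. Capitals mark the letters CTTTG on either strand, the core of the sites bound by the TCF and LEF factors through which Wnt signalling acts.
Itgav, chr2:83724147-83724396: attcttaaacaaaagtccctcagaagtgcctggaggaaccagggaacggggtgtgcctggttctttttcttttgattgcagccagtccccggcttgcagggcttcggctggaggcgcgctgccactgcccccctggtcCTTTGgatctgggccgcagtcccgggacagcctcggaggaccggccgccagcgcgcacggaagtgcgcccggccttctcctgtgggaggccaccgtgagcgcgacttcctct
Lamb3, chr1:193301744-193301993: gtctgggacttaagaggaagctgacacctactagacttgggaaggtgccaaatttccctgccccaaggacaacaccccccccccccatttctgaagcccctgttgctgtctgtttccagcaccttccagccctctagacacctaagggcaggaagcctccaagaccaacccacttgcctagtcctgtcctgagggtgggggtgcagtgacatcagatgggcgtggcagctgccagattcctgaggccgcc
The Itgav window holds 1 match, and neither start listed for Lamb3 holds one. Of the 31 members, 19 had a window and 11 of these held a match. Counted by window, 11 of the 22 member windows held one. Of all 32851 windows of this length, 48.6% held these letters, so a match is common, and it is a description of the letters only.

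The chains that pair with Itgav were measured too. Itgb6, which with Itgav activates latent TGF-beta in epithelia, had log2 signals of 6.39, 6.25 and 7.20 in tumours 16, 18 and 2 and 5.93 and 6.11 in wild types 36 and 62. Tumour 2 stood apart, and all tumours lay above wild type. The difference of 0.60 did not pass (adjusted p = 0.278 in limma), with a 95% interval from -0.29 to 1.49. The wild-type values lay near the 25th percentile of the arrays (6.03 to 6.06), so the size of the difference is uncertain. The other Itgb6 probe set differed by -0.03, and the average of both by 0.28. Itgb5, counted here among the other integrins since many cell types carry it, had 9.95, 9.95 and 10.52 in tumours and 9.90 and 9.72 in wild type. Its difference of 0.33 did not pass (adjusted p = 0.349 in limma), and its other 3 probe sets differed by 0.24 to 1.01 and did not pass either.

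The collagen and laminin receptors of epithelium did not pass. Itga2, the alpha chain of a collagen receptor, had log2 signals of 6.90, 7.03 and 7.37 in tumours and 6.54 and 6.49 in wild type. The groups did not overlap, and the difference was 0.59 (SE 0.16, adjusted p = 0.0693 in limma). Itgb4, the beta chain of the hemidesmosome, had 8.59, 8.41 and 9.04 in tumours against 8.16 and 8.04. Its difference was 0.58 (SE 0.21, adjusted p = 0.136 in limma), with no overlap and a 95% interval from 0.00 to 1.15.

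Itga6, the alpha partner of Itgb4, differed more between the wild types than between the groups. Its log2 signals were 9.75, 9.37 and 10.32 in tumours 16, 18 and 2, 8.92 in wild type 36 and 9.85 in wild type 62. Wild type 62 lay inside the range of the tumours and wild type 36 below it, and the other Itga6 probe set showed the same order of the wild types, 8.83 and 9.55. The difference was 0.43 with a 95% interval from -0.72 to 1.57 (adjusted p = 0.520 in limma), and it was -0.036 without wild type 36. Itga3, the alpha chain of another laminin receptor, had 9.96, 9.59 and 10.13 in tumours and 10.05 and 10.07 in wild type. Its groups overlapped, and the difference was -0.17 with a 95% interval from -0.64 to 0.30, or 0.0044 with quantile normalization.

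Itgb1, the beta chain shared by most of these receptors, had log2 signals of 8.25, 8.29 and 8.84 in tumours and 8.40 and 8.29 in wild type. Only tumour 2 lay above wild type, and the difference was 0.12 with a 95% interval from -0.46 to 0.69 (adjusted p = 0.728 in limma). The 6 probe sets of Itgb1 did not share a direction. The 1 that passed over probe sets was lower in tumours, by -0.23 (adjusted p = 0.0417 in limma), while the other 5 had differences from -0.36 to 0.16. The probe set that passed lay below the 25th percentile on every array. With all probe sets averaged the difference was -0.042, and without the probe sets of shared targets it was -0.36, without a call in either.

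Among the laminins, Lama3 rose and 9 of 10 chains did not pass, with a median log2 difference of 0.22. Lama3 had log2 signals of 8.09, 8.34 and 9.07 in tumours 16, 18 and 2 and 6.79 and 6.72 in wild types 36 and 62. Every tumour lay more than 1 log2 unit above both wild types, and tumour 2 was the highest. The means were 8.50 ± 0.51 (SD, n = 3) and 6.76 ± 0.05 (SD, n = 2), a difference of 1.75 (SE 0.32, adjusted p = 0.0305 in limma), or 3.35-fold. The wild-type mean lay below the array medians of 6.81 to 6.87, so the size of the fold is uncertain. Lama3 had 1 probe set. Its call was lost without tumour 16 (adjusted p = 0.0688), tumour 18 (0.0986), wild type 36 (0.146) or wild type 62 (0.159), with differences of 1.46 to 1.95.

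Lamb3, the beta chain that joins Lama3, had log2 signals of 7.84, 8.12 and 8.97 in tumours and 6.39 and 7.08 in wild types 36 and 62. The order of the tumours was that of Lama3, and wild type 62 lay above wild type 36. The difference between groups was 1.57 (SE 0.43) and did not pass (adjusted p = 0.0727 in limma), with a 95% interval from 0.40 to 2.74. It passed once tied probe sets were dropped (adjusted p = 0.0325 in limma).

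Lamb1, the beta chain of the laminins made widely by epithelium and by the cells beneath it, had log2 signals of 7.16, 7.57 and 6.32 in tumours 16, 18 and 2 and 5.74 and 5.47 in wild types 36 and 62. Here tumour 18 was the highest and tumour 2 the lowest of the tumours, whereas Lama3 was highest in tumour 2. The difference was 1.41 (SE 0.41) and did not pass (adjusted p = 0.0833 in limma), but it passed without tumour 2, at 1.76 (adjusted p = 0.0259), and with tied probe sets left out (0.0386). The other probe sets of Lamb1 differed by 0.27 and 0.07. The average of all its probe sets differed by 0.58 and did not pass (adjusted p = 0.0680 in limma). Both wild-type values of Lamb1 lay below the 25th percentile of the arrays (6.03 to 6.06), so the size of its difference is uncertain. Lamc1, the gamma chain that pairs with Lamb1, had 7.08, 7.26 and 7.06 in tumours and 6.96 and 6.76 in wild type, a difference of 0.27 (adjusted p = 0.134 in limma).

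Lama1 had 6.55, 6.86 and 6.37 in tumours and 6.18 and 6.19 in wild type, with a difference of 0.41 that did not pass (adjusted p = 0.151 in limma). The other laminin chains lay closer together. Lama2, Lama4, Lama5, Lamb2 and Lamc3 had differences between -0.11 and 0.18, and of these 5 only Lamb2 had groups that did not overlap. Lama5, the main alpha chain under adult gut epithelium, was listed at 7.76 on all 3 tumour arrays and at 8.02 and 7.72 in wild type.

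The members did not rank the 3 tumours in 1 way. All 7 epithelial integrins were highest in tumour 2 among the tumours, as were Lama3, Lamb2 and Lamb3, while Lama1, Lama2, Lama4, Lamb1 and Lamc1 were highest in tumour 18. Over all genes, 30.4% were highest in tumour 2, 32.8% in tumour 18 and 22.4% in tumour 16, and genes on 1 array are not independent. None of the 31 members was highest in tumour 16 alone, and 5 had their highest value tied between tumours, as had 14.4% of all genes. All 8 fibroblast markers were highest in tumour 18, and their summed signal on the log2 scale lay between 11.10 and 13.31 in tumours and between 10.08 and 10.44 in wild type. Tumour 18 was also highest for 9 of 11 pan-leukocyte and myeloid, 7 of 12 T and NK cell and 4 of 6 smooth muscle markers. It was highest for 2 of 5 B and plasma cell and 2 of 7 endothelial markers. Tumour 2 was highest for 7 of 11 epithelial markers. The collagen gene Col1a1 had 8.89, 9.88 and 8.23 in tumours 16, 18 and 2 and 7.39 and 7.02 in wild types 36 and 62, the order that Lamb1 showed. The part of RNA from fibroblasts or other cells in the values of Lamb1 and Lama1 was not tested.

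**Figure D3:**
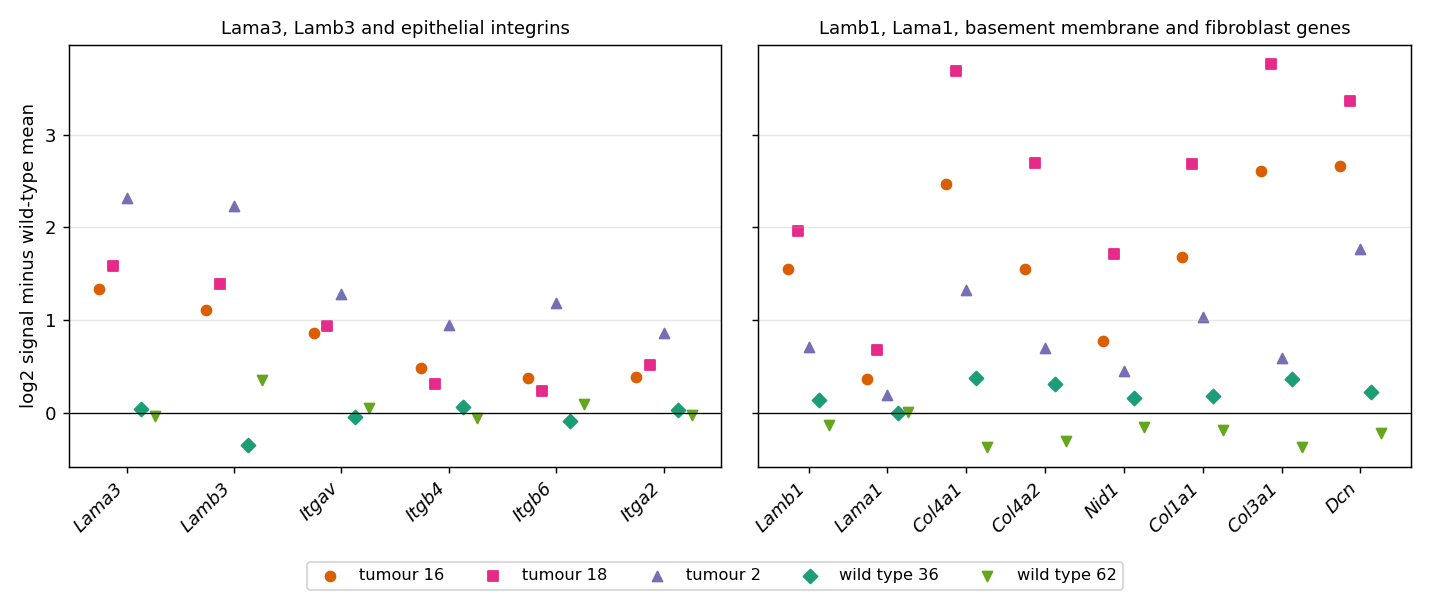
The log2 signal of named genes minus the mean of the 2 wild types (vertical axis), 1 symbol per array. At left, Lama3, Lamb3, Itgav, Itgb4, Itgb6 and Itga2 are highest in tumour 2. At right are Lamb1, Lama1, the basement membrane genes Col4a1, Col4a2 and Nid1, and 3 fibroblast genes. These are highest in tumour 18 and, among tumours, lowest in tumour 2.

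Among the leukocyte integrins, Itgae fell and 6 of 7 did not pass, with a median log2 difference of -0.22. Itgae encodes the alpha chain that joins Itgb7 on lymphocytes lodged within the epithelium and binds E-cadherin. Its log2 signals were 6.20, 6.23 and 6.36 in tumours 16, 18 and 2 and 6.89 and 7.31 in wild types 36 and 62. The tumours lay close together and below both wild types. The means were 6.27 ± 0.09 (SD, n = 3) and 7.10 ± 0.29 (SD, n = 2), a difference of -0.83 (SE 0.14, adjusted p = 0.0262 in limma), or 1.78-fold lower. Itgae had 1 probe set. All tumour values lay between the 25th percentile (6.03 to 6.06) and the median of the arrays. The call was lost without tumour 16 (adjusted p = 0.108), tumour 18 (0.101), tumour 2 (0.0591) or wild type 62 (0.0756), with differences of -1.04 to -0.63.

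Itgb7, the partner chain, had log2 signals of 6.91, 6.85 and 6.91 in tumours and 7.26 and 7.07 in wild type. The groups did not overlap, and the difference was -0.28 (SE 0.07, adjusted p = 0.0621 in limma). Cdh1, which encodes the E-cadherin that this pair binds, differed by 0.26 and did not pass (adjusted p = 0.572 in limma). Itgal and Itgb2, the chains of the main adhesion receptor of lymphocytes, differed by -0.18 (adjusted p = 0.0587 in limma) and -0.34 (0.171), with the tumours below both wild types in each. Itgax, of dendritic cells, differed by -0.22 and passed under median centring or quantile normalization (adjusted p = 0.0328 in limma for both), but not as deposited (0.0641). Itgal passed with trend and robust settings (0.0473). Itga4 and Itgam differed by -0.09 and 0.10, and Itgam was below 25th-percentile signal on all arrays. Of the 7 leukocyte integrins 5 had groups that did not overlap with tumours lower, and 1, Itgam, with tumours higher. Over all genes tested these shares were 23.7% and 27.0%.

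Of 12 T and NK cell markers on the same arrays, those that fell were Ccl5 (log2 difference -3.40), the granzyme genes Gzma (-2.84) and Gzmb (-1.10), the NK receptor gene Klrd1 (-2.00) and the T cell receptor subunit gene Cd3g (-1.41), with adjusted p from 0.00640 to 0.0287 in limma. The summed signal of the list on the log2 scale lay between 10.10 and 10.31 in tumours and between 11.59 and 12.00 in wild type. Cd8a and Cd3e, defining genes of T cells, differed by -0.09 and -0.25 and did not pass. Nor did Cd3d (-0.27), Cd2 (-0.10), Cd4 (-0.09), Cd247 (-0.04) and Cd8b1 (0.05). Cd3e lay between 7.45 and 7.82, above the array medians of 6.81 to 6.87. The signal of Cd8a was low in wild type too. It lay between 6.38 and 6.56, below the median of every array, so its difference is uncertain. Ptprc, carried by all leukocytes, fell from 7.85 ± 0.09 (SD, n = 2) to 5.91 ± 0.20 (SD, n = 3). Of 11 pan-leukocyte and myeloid markers 2 fell (Ptprc and Coro1a) and 1 rose (Cd14). The part of leukocyte number in the fall of Itgae was not tested.

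**Figure D4:**
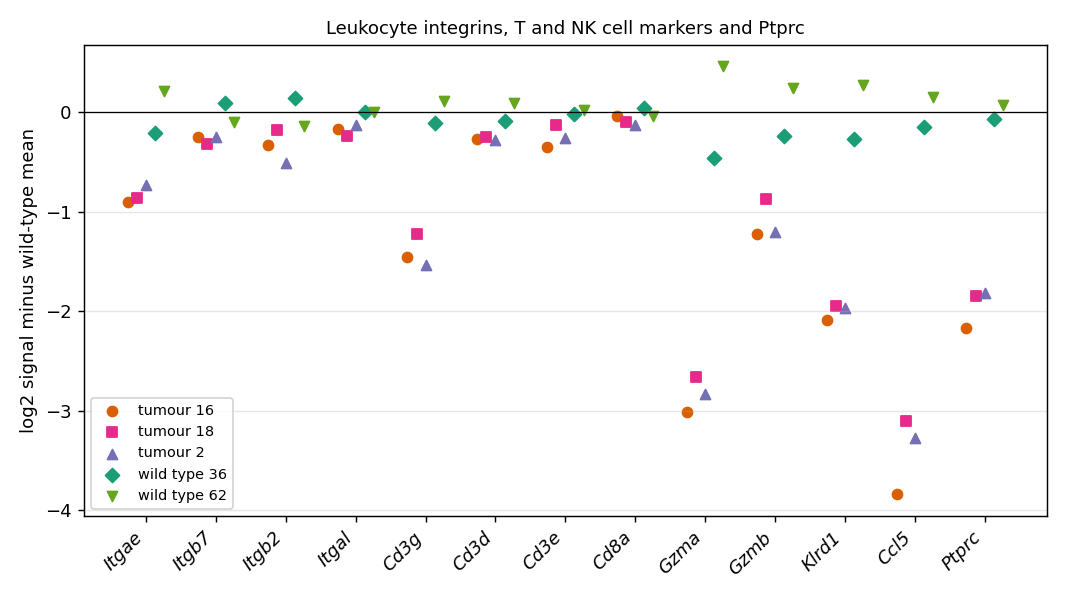
The log2 signal minus the mean of the 2 wild types (vertical axis), 1 symbol per array. Shown are 4 leukocyte integrins, Ptprc and 8 of the 12 T and NK cell markers, without Cd2, Cd4, Cd247 and Cd8b1. Itgae in the 3 tumours lies 0.74 to 0.90 below the wild-type mean, while Cd8a lies within 0.13 of it. The signal of Cd8a is below the array medians in both groups.

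The other integrins had 0 of 7 called in limma and 0 of 7 at an unadjusted p under 0.05, with differences between -0.10 (Itga7) and 0.33 (Itgb5) and a median of 0.00. Itga5, which with Itgb1 forms the fibronectin receptor, differed by -0.08, and the platelet pair Itga2b and Itgb3 by 0.00 and -0.07. Itga8 was listed between 4.91 and 4.94 on all arrays, below their 25th percentile. Itga9 had 7.03, 7.20 and 7.03 in tumours and 6.91 in both wild types, and its difference of 0.18 did not pass (adjusted p = 0.143 in limma). Of the 31 members, 10 lay below the lowest array median on every array, and 3 of them (Itgam, Itga8 and Lamb2) below every 25th percentile.

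Integrins are tied to the cytoskeleton by a set of adhesion partners. Of 22 measured, 2 rose, 0 fell and 20 did not pass, with a median log2 difference of 0.06, where 21.7% of all genes were called. With median centring, or with tied probe sets left out, 2 rose and 2 fell. Cib1, which binds integrin tails, and Dst, a linker of the hemidesmosome, differed by -0.62 and -0.35 and did not pass as deposited (adjusted p = 0.0515 and 0.0623 in limma). Actn1, the actin crosslinker alpha-actinin, had 11.01, 10.89 and 11.11 in tumours and 9.06 and 9.18 in wild type. It rose by 1.88 (SE 0.09, adjusted p = 0.00450 in limma), with the tumours well above both wild types, and by 0.77 when its probe sets were averaged. Without wild type 62 its adjusted p was 0.0526. Parva, which joins the integrin-linked kinase to actin, rose by 0.28 (SE 0.06, adjusted p = 0.0471 in limma), a call lost whichever array was left out (0.0509 to 0.177) and without the probe sets of shared targets (0.0969). Plec, the plectin that ties Itgb4 to keratin filaments, had 11.10, 10.98 and 11.74 in tumours and 10.59 and 10.54 in wild type, and its difference of 0.71 did not pass (adjusted p = 0.134 in limma).

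Of 23 measured basement membrane genes and integrin ligands, 1 rose, 0 fell and 22 did not pass, with a median log2 difference of 0.08. Among all genes tested 21.7% were called. Icam1, the ligand of the Itgb2 receptors, rose from 6.21 and 6.17 in wild types 36 and 62 to 7.12, 7.37 and 7.06 in tumours 16, 18 and 2. Its difference was 0.99 (SE 0.11, adjusted p = 0.0110 in limma), and the call was lost without tumour 16 (0.0570), wild type 36 (0.0785) or wild type 62 (0.0887). Of the type IV collagen genes, whose products lie beside laminin in the basement membrane, Col4a1 and Col4a2 had wide spreads. Col4a3, Col4a4, Col4a5 and Col4a6 differed by -0.03, -0.08, 0.01 and -0.06, without a call. Col4a1 had 9.39, 10.61 and 8.25 in tumours 16, 18 and 2 and 7.30 and 6.55 in wild types 36 and 62, a difference of 2.49 (SE 0.78, adjusted p = 0.0980 in limma). Col4a2 differed by 1.65 and the laminin-binding Nid1 by 0.98, neither with a call. In both, tumour 18 was the highest and tumour 2 the lowest tumour, as for Lamb1. Sparc (1.30) and Col18a1 (1.06) had this order too, without a call. The list did not share a rise. Hspg2 and Col15a1 differed by 0.01 and -0.04, and Nid2 was listed at 5.19 on all arrays. Agrn was lower in tumours without overlap, by -0.44, and did not pass (adjusted p = 0.129 in limma).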

How the data were processed

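The series holds 5 Affymetrix arrays with 22690 probe sets, for which the authors deposited a single table of log2 signals made with the R package affy, per the submitters' processing notes. The log2 scale follows from the range of the values and is stated nowhere. Per the labels' protocols, RNA from laser-captured cells was column-purified, treated with DNase and labelled with biotin. No source used here gives the summary or normalization method. Array medians lay between 6.81 and 6.87, and no further scaling was done. Of the probe sets, 64 were controls, 20380 had a single gene symbol in GEO's platform annotation, 691 had several and 1555 had none. All 31 member symbols were found unchanged in RefSeq.

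For each gene the probe set of highest mean was kept. Group was the only term of a limma 3.58.1 fit (R 4.3.3, eBayes with default settings) over all genes, whose steps were tested on simulated data. Standard errors (SE) are limma's moderated ones, and folds are 2 raised to the size of the log2 difference. Members and lists were chosen with earlier results of these data known. The rule for named genes asked for array values of each called member and of epithelial integrins, leukocyte integrins and laminins that differed by 1 or more, and for up to 5 called genes per partner list. Other genes given by array were chosen after their values were seen. Alternatives were median centring, quantile normalization, a filter at the 40th percentile of mean signal, trend and robust settings, averaging a gene's probe sets, dropping probe sets with the suffixes _s_at, _x_at or _a_at (called shared targets here) or with tied values, and dropping each array.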

Additional observations from a re-analysis of the deposited data

How the results depend on the processing

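Over the alternatives that kept all 5 arrays, Itgav and Itgae kept their calls in all 7 and Lama3 in the 6 that measured it. Itgae and Lama3 had 1 probe set each, so averaging probe sets left their differences unchanged and did not try the choice of probe set. Counts changed as follows. Leukocyte integrins had 2 calls with median centring, with quantile normalization and with trend and robust settings, against 1. Adhesion partners had 4 with median centring (2 higher, 2 lower), 5 with quantile normalization (4 and 1), 1 without shared targets and 4 without tied probe sets (2 and 2), against 2 higher. Basement membrane genes and ligands had 2 with averaged probe sets, 2 with shared targets left out and 3 with ties left out, against 1. Laminins had 0 of 8 with shared targets left out, where Lama3 and Lamb3 had no probe set and 1 had an unadjusted p under 0.05 in limma. With ties left out, 6 members were called, among them 2 epithelial integrins and 3 laminins.

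Leaving out 1 array at a time gave 0 to 2380 called genes in all, and 0 to 4 members, with 3880 genes at an unadjusted p under 0.05 in limma where the count was 0. By group this was 0 to 2 epithelial integrins, 0 to 1 leukocyte integrins, 0 to 2 laminins, 0 to 2 adhesion partners and 0 to 3 basement membrane genes and ligands. With ties also left out, 5 members were called without tumour 16 and 8 without tumour 2.

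Of the 28 uncalled members 7 changed sign under some alternative. These were Itga8 (-0.029 with median centring), Itga3 (0.0044 with quantile normalization), Itgb1 (-0.042 with averaged probe sets, -0.36 with shared targets left out), Lama5 (0.025 with averaged probe sets, 0.16 with ties left out) and Itga5 (0.040 with ties left out). Leaving out 1 array gave ranges of -0.014 to 0.0088 for Itga2b, -0.0018 to 0.0090 for Itga8, -0.071 to 0.22 for Itgb1, -0.036 to 0.90 for Itga6 and -0.26 to 0.044 for Lama5. The causes were not tested.

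No paired analysis was possible because the tumours came from Apc1638N mice and the normal epithelium from mice with no Apc mutation named. Signal over background was not judged, since no detection calls were used.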
